A study of Mus musculus with 12 samples.

Results

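Cultures labelled as mouse oligodendrocyte progenitor cells (OPCs) held low but measurable RNA of microglial marker genes. Which cells of the cultures held it was not tested. The set described here is 9 genes of the 20540 in the deposited expression table, taken by symbol: Aif1, C1qa, C1qb, C1qc, Csf1r, Cx3cr1, Tmem119, P2ry12 and Itgam. All 9 had reads. In summed level they made up 17.6 to 29.7 CPM (reads scaled to a common library size) in the 12 libraries, from 316 to 692 reads per library. C1qa was the highest of them per length of transcript. C1qa was also lower under the miR-27a mimic in both kinds of RNA, and Tmem119 was higher in pulldown than in whole-cell RNA.

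OPCs are the glial precursors that divide and turn into myelinating oligodendrocytes. Their source was C57BL/6 mouse brain, with the age given as postnatal days 6 to 7, and they were kept in a medium that the labels name SATO+PDGFRA. A mimic is a synthetic microRNA duplex. One with a biotin tag, either a control or miR-27a, was transfected, and RNA was taken from whole cells or from a pulldown of the tagged mimic. The 4 groups were thus whole-cell RNA under control mimic, whole-cell RNA under miR-27a mimic, pulldown RNA under control mimic and pulldown RNA under miR-27a mimic, with 3 libraries each. All 12 libraries share the strain, the age, the biotin tag and the transfection, and no untransfected cells were analysed here. Whether the 3 libraries of a group were separate cultures is not stated, and p-values therefore reflect only how much these libraries vary, which may be technical. Since the libraries are bulk RNA, fewer cells of a type and less RNA per cell cannot be told apart.

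Microglia are the resident macrophages of the brain. They depend on signals through Csf1r, the receptor of the growth factors Csf1 and Il34, and carry Cx3cr1, the receptor of the neuronal chemokine Cx3cl1, and P2ry12, a purine receptor that guides their processes towards nucleotides. Itgam (CD11b) is the alpha chain of complement receptor 3 and pairs with Itgb2, Aif1 (IBA1) binds actin, and Tmem119 is a membrane protein used to tell microglia from other macrophages. C1qa, C1qb and C1qc encode the 3 chains of C1q, which starts the classical complement cascade, and microglia are its main source in the healthy brain.

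A microRNA recognises target mRNAs mainly through its seed, bases 2 to 8. The mature mouse miR-27a-3p of RefSeq (GRCm38.p6, chr8:84208727-84208747, plus strand) is printed here because the mimic carries its name, with the seed in capitals. The sequence of the mimic itself was not used here.
miR-27a-3p: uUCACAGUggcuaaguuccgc
No member had the 8mer ACTGTGAA or either 7mer, ACTGTGA and CTGTGAA, in its longest annotated 3′ UTR (GENCODE M21, GRCm38; sense strand only, with the 7mers lying within the 8mer). Of 11735 tested genes with a 3′ UTR, 32.7% had an 8mer or 7mer and 7.41% an 8mer. The 3′ UTRs of the C1q genes and Aif1 were short: 237 bases in C1qa, 160 in C1qb, 239 in C1qc and 118 in Aif1, against a median of 1451 bases. The shorter core CTGTGA was present in C1qa, Tmem119 and Itgam, and in 53.2% of the 11735 genes. No base follows the C1qa core in its annotated UTR, so the search could not have found CTGTGAA at that place. These windows are printed, core in capitals, because C1qa is the member called between mimics and Tmem119 the one called in the pulldown under both mimics.
C1qa 3′ UTR, core at bases 232 to 237, the last of that UTR: ccccgtctgtgtCTGTGA
Tmem119 3′ UTR, core at bases 326 to 331: gccagaggccacCTGTGAcggggcaaactg
Itgam 3′ UTR, core at bases 91 to 96: catatgttgttgCTGTGAtgtcttatacaa
Itgam 3′ UTR, core at bases 259 to 264: cacatttcttgcCTGTGAccaatgccttaa
Itgam 3′ UTR, core at bases 1002 to 1007: cagagaattaccCTGTGAttgtaatgtatt
A match describes letters in the annotated UTR and is not a measured binding site.

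Libraries held 15548418 to 24972188 assigned reads, and 0 reads in a library allow up to 0.116 to 0.2 CPM (3 reads, counting error only). All 11 OPC markers listed were present, summing to 2993 to 5740 CPM. The labelled cell type was not the only one detected: 8 mature oligodendrocyte markers summed to 4526 to 12550 CPM and 8 astrocyte markers to 3852 to 8428 CPM. At most 0.68 CPM came from the monocyte and neutrophil genes in the table (6 of 10 listed) and at most 0.326 CPM from the T and B cell genes (4 of 9 listed). Tests used limma on log2(CPM + 1), two-sided, with Benjamini-Hochberg adjustment over all genes tested. A gene was called at an adjusted p under 0.05. The filter on low genes (1 CPM or more in 3 or more of a fit's libraries) was passed by 7 of the 9 members in each fit. Aif1 and C1qb did not pass.

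**Figure D1:**
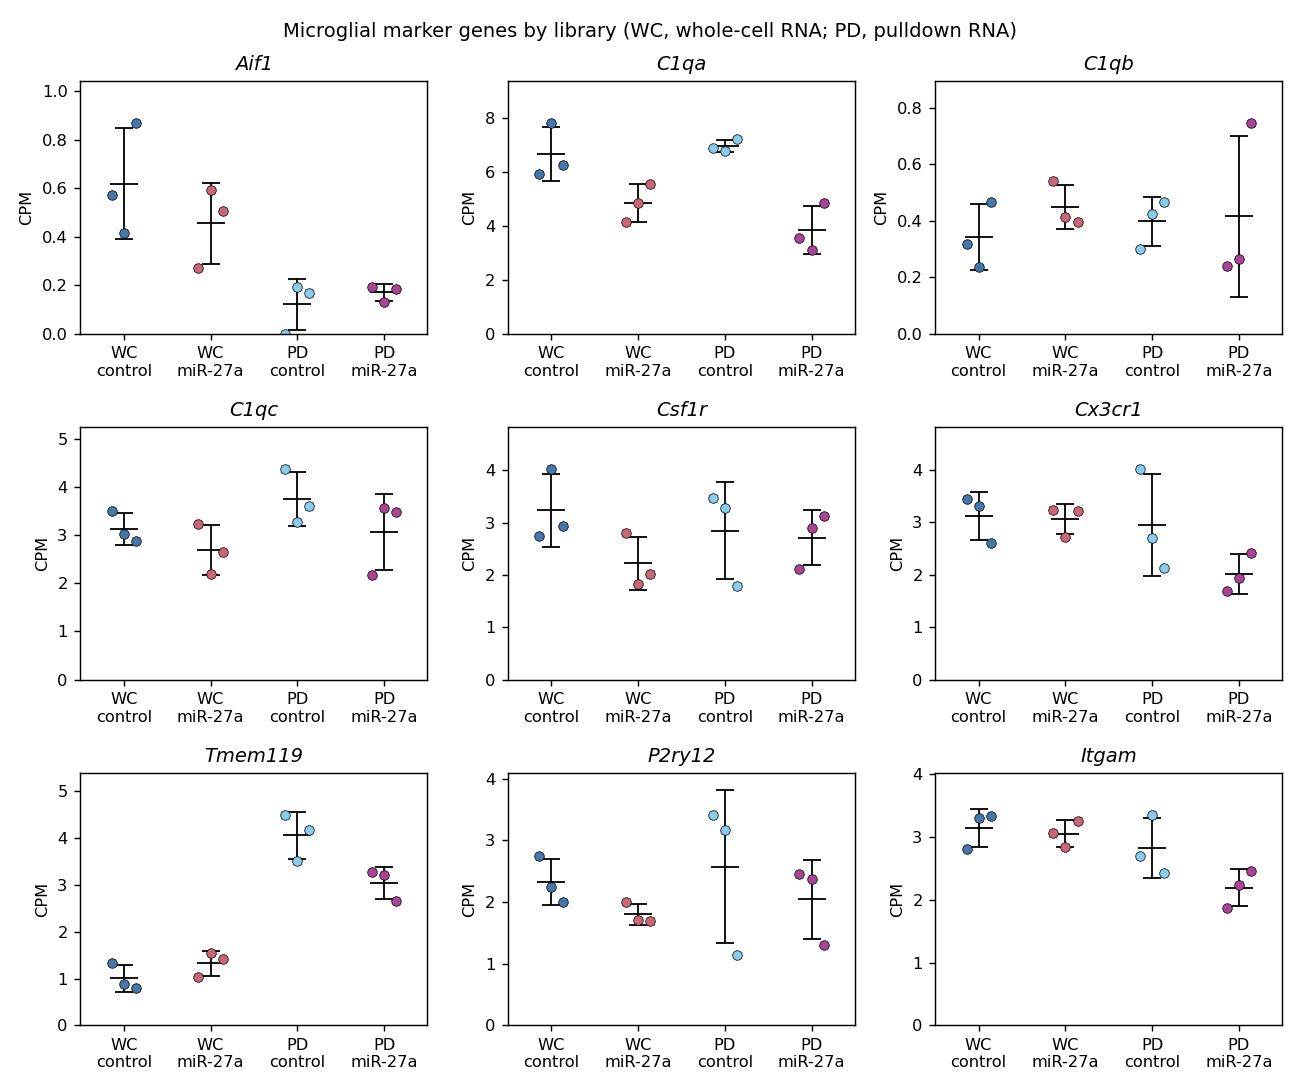
CPM of each of the 9 microglial marker genes (vertical axis, a scale of its own per panel, starting at 0) in whole-cell (WC) and pulldown (PD) RNA under either mimic. Points are libraries (3 per group), long bars are means and whiskers are SD. C1qa sits between 3.12 and 4.84 CPM in the pulldown under miR-27a, below all 3 pulldown controls, and Tmem119 is higher in every pulldown library than in every whole-cell library.

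To compare levels between genes, CPM were divided by the length of all annotated exons in kilobases. The annotation that the authors counted with is not named, so these lengths may not match the exons counted. In whole-cell RNA under control mimic, C1qa stood at 6.41 ± 0.963 CPM per kb (SD, n = 3) and C1qc at 1.62 ± 0.172. P2ry12 followed at 0.915 ± 0.148, and Cx3cr1 at 0.693 ± 0.1. The libraries of these 4 genes did not overlap from one to the next in that order. Further down came Itgam at 0.627, Csf1r at 0.56, Tmem119 at 0.436, Aif1 at 0.404 and C1qb at 0.313 CPM per kb, and from Cx3cr1 downwards each neighbour overlapped the next. On the same scale and in the same group Pdgfra, a receptor typical of OPCs, was at 55.2 CPM per kb and Aqp4, the astrocyte water channel, at 599.2. In the pulldown Tmem119 stood at 1.75 CPM per kb under control mimic and 1.32 under miR-27a.

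**Figure D2:**
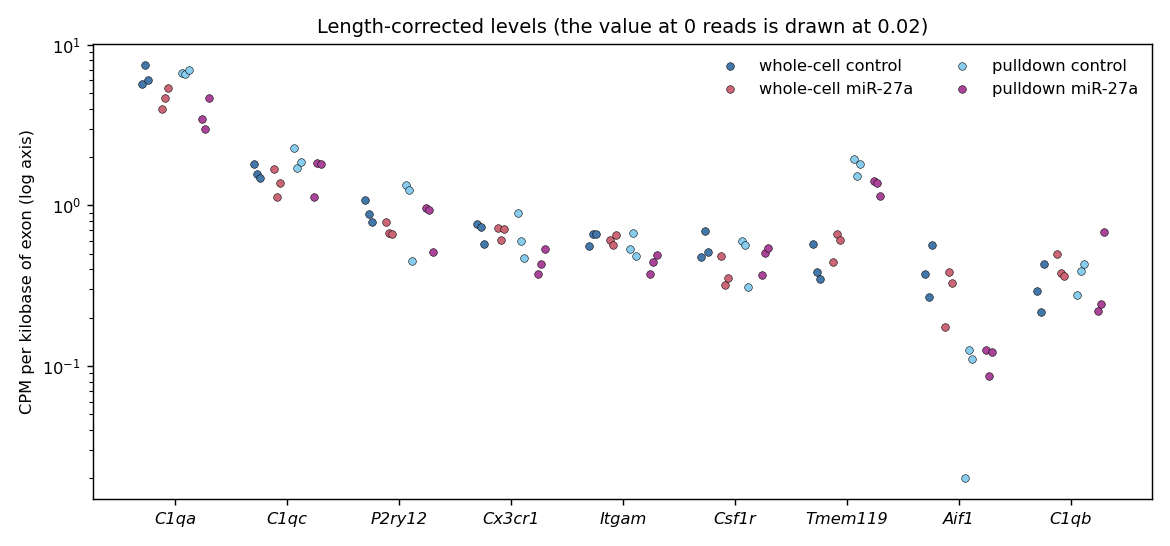
Level of the 9 markers in CPM per kilobase of exon (log axis) in the 4 groups. Points are libraries, and the library with 0 Aif1 reads is drawn at 0.02. C1qa is the highest member in every library, at 3 to 7.51 CPM per kb, and every pulldown library of Tmem119 lies above every whole-cell library of it.

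The 3 C1q chains are made in equal number in the protein, but their measured RNA levels per kb of annotated exon were not equal. Exons counted by the authors may differ from those used for the lengths, which would alter these ratios. The genes lie side by side on the minus strand (GRCm38): C1qa at chr4:136895917-136898803, C1qc at chr4:136889804-136893065 and C1qb at chr4:136880129-136886187, with 2851 bases between C1qc and C1qa and 3616 between C1qb and C1qc. No other annotated gene overlaps them. Per kb of exon, C1qa exceeded C1qb in all 12 libraries, by 6.8 to 34.5 times (median 15.1), and C1qc exceeded C1qb by 2.64 to 8.23 times. C1qa exceeded C1qc by 1.63 to 4.81 times. C1qb rested on 4 to 16 reads per library, so its ratios carry wide counting error. Itgam likewise exceeded its partner chain Itgb2 per kb, by 2.37 to 27.3 times in the 11 libraries where Itgb2 had reads. Itgb2 rested on 0 to 12 reads per library, so this ratio also carries wide counting error.

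C1qa, the A chain of C1q, was lower in whole cells given miR-27a. Its levels were 5.93, 7.81 and 6.27 CPM (93, 132 and 94 reads) under control mimic and 4.15, 4.85 and 5.57 CPM (77, 82 and 99 reads) under miR-27a. All 3 libraries under miR-27a lay below all 3 controls. C1qa fell by 0.39 on the log2(CPM + 1) scale (SE 0.12, adjusted p = 0.0246, limma). The adjusted p was 0.122 without control library 2, 0.138 without miR-27a library 1 and 0.0588 without miR-27a library 2, so the call rested on each of these libraries.

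In the pulldown the C1qa difference was larger in size. C1qa stood at 6.89, 6.79 and 7.23 CPM (115, 176 and 170 reads) under control mimic and at 3.56, 3.12 and 4.84 CPM (74, 71 and 104 reads) under miR-27a. The groups did not overlap, and the 3 controls lay close together. It fell by 0.735 on the log2(CPM + 1) scale (SE 0.155, adjusted p = 0.0049, limma). The call held in all 15 alternatives run, with adjusted p from 0.000908 to 0.0362. Whether the mimic's effect on C1qa differed between pulldown and whole-cell RNA was tested directly: the difference was -0.35 (SE 0.20, adjusted p = 0.492, limma), so a difference was not shown.

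C1qc, the C chain, had 3.51, 3.02 and 2.87 CPM in whole-cell controls and 3.23, 2.19 and 2.65 under miR-27a. In the pulldown it had 4.38, 3.28 and 3.61 CPM under control mimic and 2.16, 3.56 and 3.49 under miR-27a. The groups overlapped in both kinds of RNA, and the differences, -0.17 and -0.24 log2, were not called (adjusted p = 0.407 and 0.43, limma). The log2 ratio of C1qa to C1qc per kb was 1.98 under control and 1.75 under miR-27a in whole-cell RNA (p = 0.6, exact permutation test, two-sided). In the pulldown it was 1.79 and 1.23 (p = 0.2, exact permutation test, two-sided). With 3 against 3 libraries the smallest p this test can give is 0.1, so it could not reach 0.05, and its p-values do not show whether the 2 chains differed in their response. C1qb, the B chain, lay at 0.237 to 0.745 CPM in the 12 libraries, with overlapping groups in each comparison.

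Csf1r, the growth factor receptor, had 2.74, 4.02 and 2.94 CPM in whole-cell controls and 2.80, 1.83 and 2.03 CPM under miR-27a. One miR-27a library lay within the control range and the others below it. The difference of -0.39 log2 (SE 0.15) had an adjusted p of 0.0586 (limma) and was not called. In the pulldown Csf1r had 3.48, 3.28 and 1.78 CPM under control mimic and 2.12, 2.90 and 3.12 under miR-27a, with overlapping groups and a difference of -0.03 log2. Of its exon bases, 873 of 5774 are shared with Hmgxb3 on the opposite strand, at a mean of 63.3 CPM. No source used here says whether the authors counted by strand, so some reads assigned to Csf1r may belong to that gene, and the values are uncertain.

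Cx3cr1, the fractalkine receptor, had 3.44, 3.31 and 2.60 CPM in whole-cell controls and 3.23, 2.72 and 3.21 under miR-27a. In the pulldown it had 4.01, 2.70 and 2.12 CPM under control mimic and 1.68, 1.93 and 2.42 under miR-27a. Its groups overlapped between mimics in both kinds of RNA. P2ry12, the purine receptor, had 2.74, 2.25 and 2 CPM in whole-cell controls and 1.99, 1.72 and 1.69 under miR-27a, which do not overlap, yet the difference of -0.25 log2 was not called (adjusted p = 0.222, limma). In the pulldown P2ry12 ranged over 1.15 to 3.42 CPM in controls and 1.30 to 2.45 CPM with miR-27a. The low value in each was library 3. In pulldown controls the P2ry12 variance between libraries was 13.6 times what counting alone gives, the highest such ratio of any member and group.

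Itgam (CD11b) had 2.81, 3.31 and 3.34 CPM in whole-cell controls and 3.07, 2.84 and 3.26 under miR-27a, with overlapping groups. It had 2.70, 3.36 and 2.42 CPM in pulldown controls and 1.88, 2.24 and 2.47 under miR-27a, again overlapping. Of its exon bases, 3450 of 5024 are shared with the same-strand gene model Gm49368, not analysed here, so reads of the pair may have been split and the Itgam level is uncertain. Per kb, Aif1 was the lowest member in the pulldown. It had 0.574, 0.414 and 0.868 CPM in whole-cell controls (9, 7 and 13 reads), 0.269, 0.592 and 0.506 under miR-27a, 0, 0.193 and 0.17 in pulldown controls (0, 5 and 4 reads) and 0.192, 0.132 and 0.186 in the pulldown under miR-27a. All pulldown libraries lay below all whole-cell libraries for Aif1.

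In counts over the members, 1 of 7 tested (14.3%) was called between mimics in whole-cell RNA, C1qa, where 24.9% of all 13393 genes tested were called. The difference was negative for 6 of 7, the exception being Tmem119, against 47.5% of all genes. The members' median was -0.17 log2, against 0.01 over all genes tested. In the pulldown 1 of 7 was called, again C1qa, against 13.1% of 13586 genes. All 7 tested members had negative differences, against 50.2% of all genes, with a median of -0.26 against 0.00. With the replicate number as a block, 1 of 7 members was again called in the pulldown, but 2743 of all genes rather than 1781. The share of members called was below that of all genes in whole-cell RNA, and 1 call of 7 in the pulldown is not set apart from either background. These 2 comparisons share no library, but whether whole-cell and pulldown RNA came from the same cultures is not stated.

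Markers of other cell types also differed between the mimics, not all in the same direction. In whole-cell RNA 7 of 8 astrocyte markers (87.5%) were called lower under miR-27a (median -0.22). Their sums were 8399 to 8428 CPM in controls and 6981 to 7016 CPM with miR-27a. In the pulldown 6 of 8 astrocyte markers (75%) were called lower (median -0.52), with sums of 5480 to 5643 and 3852 to 4339 CPM. Mature oligodendrocyte markers were called lower for 3 of 8 and higher for 1 in whole-cell RNA (50% called, median -0.04). In the pulldown 5 of 8 of them were called lower (62.5%, median -0.52). OPC markers were called higher for 6 of 11 and lower for 2 in whole-cell RNA (72.7% called, median 0.11). In the pulldown 5 of 11 of them were called higher (45.5%, median 0.22). Over all genes tested 24.9% were called in whole-cell RNA and 13.1% in the pulldown. The part of these lists in the C1qa result was not tested.

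**Figure D3:**
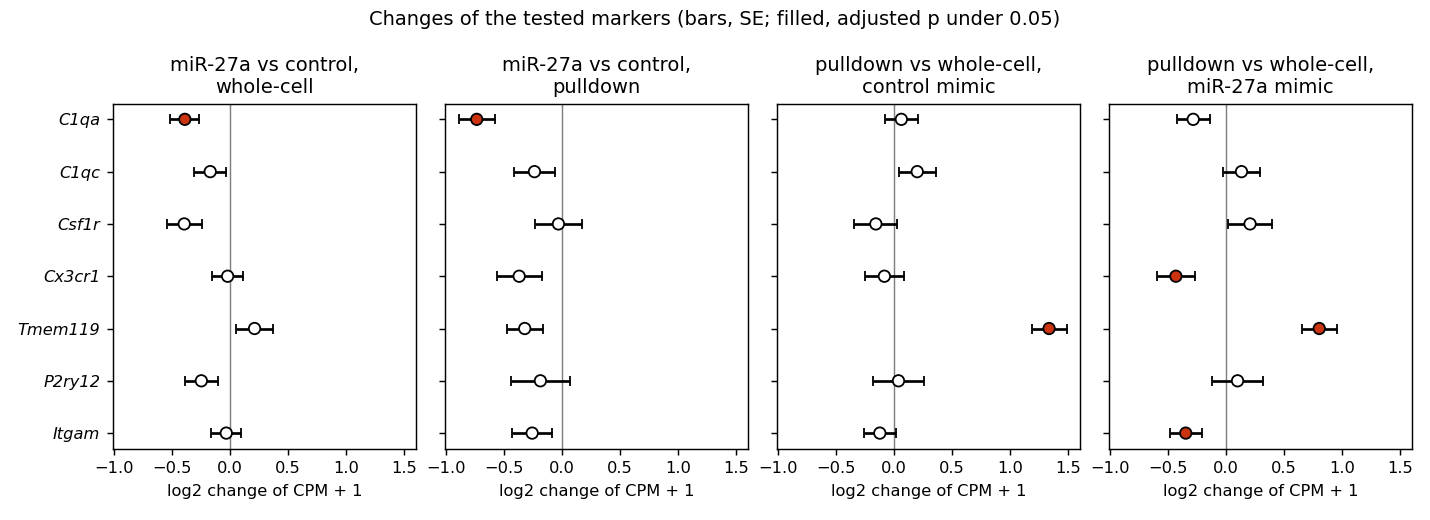
Difference of each tested member in log2(CPM + 1) with its standard error, comparing the mimics within either kind of RNA (left 2 panels) and the pulldown with whole-cell RNA for either mimic (right 2 panels). Filled points are called. C1qa at -0.39 and -0.735 is called in the mimic comparisons, and Tmem119 at 1.34 and 0.80 is the one member called higher in the pulldown under both mimics.

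Tmem119 (GRCm38, chr5:113793729-113800516, minus strand, no overlapping exon of another gene) was higher in pulldown than in whole-cell RNA. It had 1.34, 0.887 and 0.801 CPM (21, 15 and 12 reads) in whole-cell controls and 4.5, 3.51 and 4.17 CPM (75, 91 and 98 reads) in pulldown controls. Under miR-27a it had 1.02, 1.54 and 1.41 CPM (19, 26 and 25 reads) in whole-cell RNA and 3.27, 3.21 and 2.65 CPM (68, 73 and 57 reads) in the pulldown. No pulldown library overlapped a whole-cell library under either mimic.

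On the log2(CPM + 1) scale Tmem119 rose by 1.34 in the pulldown under control mimic (SE 0.15, adjusted p = 4.96e-07, limma) and by 0.80 under miR-27a (SE 0.15, adjusted p = 0.000162, limma). The added 1 understates the difference of so low a gene: with the deposited log2 CPM as they stand the differences were 2.02 and 1.21. Both calls held in all 14 alternatives run. Between mimics in the pulldown, the 3 miR-27a libraries of Tmem119 lay below the 3 controls, but the difference of -0.32 log2 was not called (adjusted p = 0.207, limma). In whole-cell RNA the difference was 0.21 with overlapping groups (adjusted p = 0.37, limma). The change in the pulldown contrast with miR-27a was -0.53 log2 (SE 0.21), with an unadjusted p of 0.022 and an adjusted p of 0.275 (limma).

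The other members did not share this pattern in their values. Under control mimic 1 of 7 tested members was called between pulldown and whole-cell RNA, Tmem119, where 62.0% of 13875 genes were called. The other 6 differed by -0.16 to 0.20 log2, with C1qa at 0.06. The members' median was 0.04 against 0.02 over all genes. Scaled by library totals instead, the calls over all genes split into 5176 higher and 3401 lower, against 4392 and 4209 with the authors' scaling.

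Under miR-27a 3 of 7 members were called (42.9%), against 60.2% of all genes, which is again below the background. Besides Tmem119, Cx3cr1 fell by 0.43 log2 (SE 0.17, adjusted p = 0.0308, limma) and Itgam fell by 0.35 (SE 0.14, adjusted p = 0.0346, limma). For both, all 3 pulldown libraries under miR-27a lay below all 3 whole-cell libraries. Each of these 2 calls held in 8 of the 14 alternatives run. With library totals these calls were lost (adjusted p = 0.0706 for Cx3cr1 and 0.0953 for Itgam, limma), while the calls over all genes split into 5009 higher and 3312 lower against 4064 and 4286. Each was also lost without whole-cell miR-27a library 1 or 3 and without pulldown miR-27a library 1 or 2, with adjusted p up to 0.104 for Cx3cr1 and 0.135 for Itgam. C1qa, at -0.28 log2, was not called (adjusted p = 0.0921, limma) but passed without pulldown miR-27a library 3 (adjusted p = 0.018, limma).

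Aif1 was too low for the filter. With genes of at least 0.1 CPM in at least 3 libraries admitted, Aif1 fell by 0.52 log2 in the pulldown under control mimic (adjusted p = 0.00169, limma) and by 0.31 under miR-27a (adjusted p = 0.0472, limma). For the difference of the pulldown contrast between mimics, limma called 0 of 7 members, against 1.07% of 13875 genes. At an unadjusted p under 0.05 there was 1, Tmem119, and limma voom on the recovered reads called 0.

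Cell type markers differed between the pulldown and whole-cell RNA as well. All 6 fibroblast markers, genes of the collagen-rich matrix, were called higher in the pulldown under control mimic (median 1.66), among them Col1a2 at 2.10 and Lum at 1.87 log2. Their sums were 95.4 to 122 CPM in the whole-cell libraries and 318 to 377 in the pulldown libraries. Astrocyte markers were called lower for 6 of 8 and higher for 1 of 8 (87.5% called, median -0.64). Of the OPC markers 7 of 11 were called higher (63.6%, median 0.83). Mature oligodendrocyte markers were called lower for 7 of 8 (87.5%, median -0.95), and 2 of 3 tested endothelial markers were called higher (66.7%, median 1.07). Over all 13875 genes tested 62.0% were called, so the OPC and endothelial shares were near that of all genes. The part of these lists in the Tmem119 result was not tested.

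Other genes known from microglia were mixed. Of 18 listed, 8 were tested between mimics. In whole-cell RNA Olfml3, a secreted protein, fell by 0.53 log2 (adjusted p = 0.000145, limma). In the pulldown Tgfbr1, a TGF-beta receptor, rose by 0.40 log2, and none of the list was called lower. Siglech, a lectin used as a microglial marker, had at most 4 reads in a library and none in 8 of 12. Trem2 and Tyrobp, a receptor and its signalling adaptor, had means of 0.544 to 1.02 and 1.58 to 2.63 CPM over the groups, with no call for either where tested. In the pulldown against whole-cell RNA under control mimic 4 of 9 tested (44.4%, against 62.0% of all genes) were called higher, among them Olfml3 at 0.97, Rnase4 at 0.95 and Tgfbr1 at 0.17 log2.

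Of the genes shared by leukocytes and macrophages, 32 of 34 listed were in the table. In whole-cell RNA 4 of 19 tested (21.1%, near the 24.9% of all genes) fell under miR-27a: Cd53, a tetraspanin of leukocytes, by 0.57, Fcgr2b, an Fc receptor, by 0.49, Mpeg1, a pore-forming protein, by 0.45 and Lyz2, lysozyme, by 0.21 log2. In the pulldown 2 of 20 (10%, near the 13.1% of all genes) fell: Cd14, the co-receptor for lipopolysaccharide, by 0.90 and Csf2ra, a cytokine receptor chain, by 0.50, and none rose. The list's medians were -0.21 and -0.19, against 0.01 and 0.00 over all genes. In the pulldown against whole-cell RNA under control mimic 4 of 22 rose and 4 fell (36.4% called, against 62.0%), with Cd53 at 0.78 and Cd14 at 0.49 against Lair1 at -0.57 and Ly86 at -0.54. Of the border macrophage genes, found in the brain's coverings and vessels, 2 or 3 were tested in each fit. F13a1, a clotting factor chain, was the one called, lower in the pulldown by 0.66 under control mimic and by 0.73 under miR-27a. That is 33.3% of those tested in each contrast, below the 62.0% and 60.2% of all genes.

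**Figure D4:**
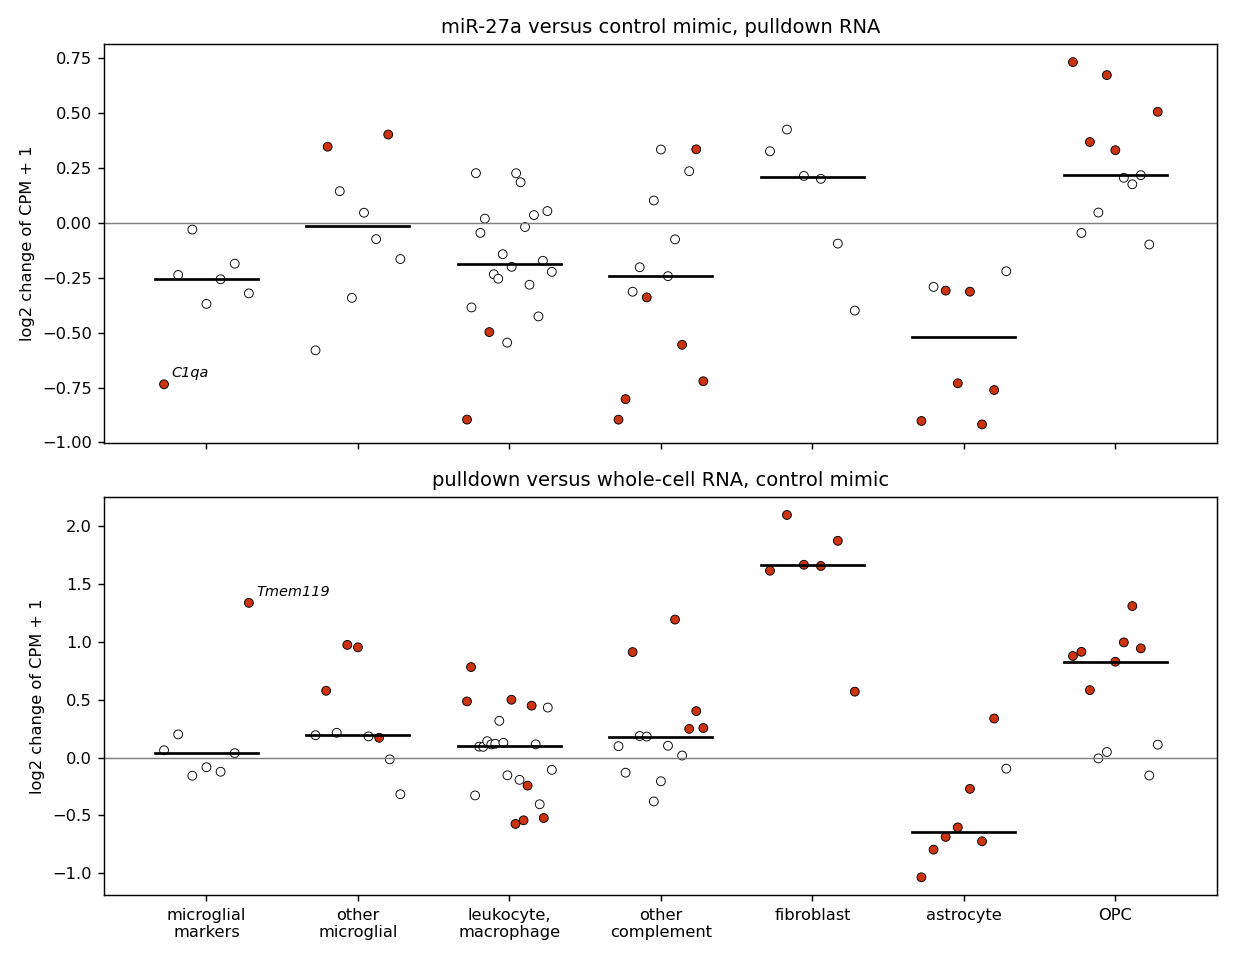
Difference in log2(CPM + 1) of every tested gene of 7 lists (the markers, 3 other immune lists, and fibroblast, astrocyte and OPC markers), for miR-27a against control mimic in the pulldown (upper panel) and for pulldown against whole-cell RNA under control mimic (lower panel). Each point is a gene, filled points are called, and bars are list medians. C1qa at -0.735 in the upper panel and Tmem119 at 1.34 in the lower panel are labelled.

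Ligands of the members' receptors, and TGF-beta ligands, which act on microglia through other receptors, were measured in the same libraries. Csf1, a ligand of Csf1r, averaged 18.6 ± 1.1 CPM in whole-cell controls and 13.6 ± 1.2 under miR-27a (SD, n = 3 each). It fell by 0.42 log2 in whole-cell RNA (adjusted p = 0.000616, limma) and by 0.49 in the pulldown (adjusted p = 0.0148, limma). Il34, the other ligand of Csf1r, had group means of 0.0788 to 0.234 CPM and was not tested. Icam1, an adhesion molecule bound by Itgam with Itgb2, fell by 0.42 in whole-cell RNA and by 0.85 in the pulldown (adjusted p = 0.0249 and 0.00292, limma). Tgfb2 fell by 0.37 in whole-cell RNA (adjusted p = 0.0434, limma), while Tgfb1 had 0 reads in 6 libraries. In the pulldown the Tgfb2 difference of -0.34 log2 was not called (adjusted p = 0.246, limma). Cx3cl1, the ligand of Cx3cr1, averaged 1.11 to 1.18 CPM in whole-cell RNA and 2.65 to 3.36 in the pulldown, and was called higher there under both mimics, by 0.78 and 0.96 log2.

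Complement genes outside C1q were also measured. In whole-cell RNA 4 of 13 tested (30.8%, against 24.9% of all genes) fell under miR-27a: C2, a serine protease of the classical pathway, by 0.86, C1ra, the protease that C1q activates, by 0.55, Clu, an inhibitor of the terminal complex, by 0.20 and C4b by 0.15 log2. In the pulldown 5 fell and 1 rose (46.2% called, against 13.1% of all genes), with C1ra at -0.90, C2 at -0.80, Serping1, the C1 inhibitor, at -0.72 and Clu at -0.56. The median of the 13 was -0.04 in whole-cell RNA and -0.24 in the pulldown. In the pulldown against whole-cell RNA under control mimic 5 of 13 rose and none fell (38.5% called, against 62.0%), with C3 at 0.91 log2, while C1qa and C1qc had 0.06 and 0.20 and were not called.

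The members varied together only in part. After centring each gene within the 4 groups, over the 12 libraries, Pearson's r with the mean of the 7 tested members was 0.932 for Cx3cr1, 0.853 for Csf1r, 0.633 for P2ry12, 0.583 for C1qc and 0.455 for Itgam. It was 0.085 for C1qa and -0.023 for Tmem119. Each member is part of that mean, and the points share libraries and their depth. Among the genes outside the set most like it were Plekhn1 at 0.974, Tbc1d7 at 0.929, Trem2 at 0.913 and Tmem191c at 0.907, out of 13875 genes. These are the top values of many, given with no test. Over the 4 groups the variance between libraries of a group was 0.887 times what counting gives for Itgam, 1.11 times for Tmem119, 2.27 times for C1qa, 3.36 times for Csf1r and 4.8 times for P2ry12.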

How the data were processed

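RNA from whole cells and from pulldowns was sequenced in 12 libraries, with groups and replicate numbers taken from the titles. Per the series' design text in the labels, libraries were made from total RNA with a stranded TruSeq kit (Ribo-Zero Globin depletion), trimmed with skewer, aligned with HISAT2 to GRCm38, counted with featureCounts and normalised by the authors with edgeR. No source used here gives versions or strand settings, and the submitters' processing notes also name mm8 without a role. The authors deposited log2 CPM for 20540 genes. Subtracting the value of 0 reads (-6.27) on the linear scale gave whole reads for 100% of values, within 0.01 reads, and thereby CPM and assigned reads.

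Tests used limma 3.58.1 in R 4.3.3 with a trend over mean expression on log2(CPM + 1), in fits of 6 libraries for the mimics and of all 12 for the pulldown contrasts, after the filter of 1 CPM in 3 libraries. The design fixed limma because the deposited unit is log2. Alternatives covered the scaling, the pseudocount (0.25, or the deposited log2 values), the filter, limma voom, the replicate block, the libraries fitted and leaving out each library. Python 3.11.15, pandas 2.3.3, numpy 2.4.6, scipy 1.17.1 and matplotlib 3.10.9 made the other values and plots. The fits were tested on simulated data, with a fixed spread for all genes and changes larger than most of the members' differences. Differences as small as most of the members' were not part of that test.

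The 9 members and 16 gene lists were chosen with earlier results of these data known. Of each other list described, up to 4 genes with the smallest p were named (every ligand), with genes from the 5 most like the members. Some genes that this rule names are not reported here. Genes named for their level alone (Siglech, Trem2, Tyrobp, Itgb2, Pdgfra, Aqp4) were chosen after their values were seen. Lengths and 3′ UTRs came from GENCODE M21 (GRCm38), which holds 9 of 9 members and 18013 of the 20540 genes by name.

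Same-numbered pulldown libraries of the 2 mimics deviated together (r = 0.141, 0.286 and 0.107 after centring), so replicate numbers paired them by the rule used (r over 0.1 in each of 3 pairs). In whole-cell RNA r was 0.002, -0.036 and -0.032.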

Additional observations from a re-analysis of the deposited data

How the results depend on the processing

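Over the alternatives run, 542 of 566 single-gene values kept their side of the threshold, 17 lost a call and 7 gained one. The sign differed from that reported in 25 values, none of them called in either fit. The number of members called between mimics in the pulldown was 1 and that for the difference of contrasts 0 in every alternative. In whole-cell RNA the number called between mimics, 1, became 0 without a filter on low values and 0 with all 12 libraries in 1 fit (adjusted p of C1qa 0.102 and 0.0944, limma), and ranged from 0 to 2 when single libraries were left out. The 2 arose without control library 1, when Csf1r passed (adjusted p = 0.0324, limma). Csf1r also passed without miR-27a library 1 (adjusted p = 0.0309, limma). Under control mimic the number called between pulldown and whole-cell RNA, 1, became 2 without a filter and 2 with a filter at 0.1 CPM, the added gene being Aif1. Under miR-27a it went from 3 to 1 with library totals and ranged from 1 to 4 when single libraries were left out. The paired fit with a replicate block changed no member's call. In the pulldown it gave C1qa an adjusted p of 0.00247 (limma), and 2743 genes called where the fit without it called 1781. Counts over all genes between mimics were 1415 to 3419 in whole-cell RNA (3335 as reported) and 969 to 3051 in the pulldown, and for the difference of contrasts 43 to 473 (149 as reported). Members rested on 0 to 176 reads per library, which limits precision, most of all for Aif1 and C1qb.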
